A study of Drosophila melanogaster with 25 samples.

Results

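The genes described here are 10 DNA break repair and checkpoint genes of Drosophila melanogaster: mre11, rad50, nbs, Irbp, Ku80, DNAlig4, lig3, tefu, mei-41 and p53. They were chosen by name for their roles, but with earlier results of these data known. All 10 were found by their FlyBase identifiers among the 13955 genes with a value. All 10 passed the filter on low values in every comparison.

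A double-strand break is first bound by the MRN complex, made of the nuclease Mre11, the ATPase Rad50 and the adaptor Nbs, and by the Ku ring, a dimer of Ku70 (encoded by Irbp) and Ku80. In nonhomologous end joining, Ku holds the ends until DNA ligase IV (DNAlig4) seals them, while DNA ligase III (lig3) acts mainly on single-strand breaks and, in mammals, in a back-up form of end joining. The kinases ATM (encoded by tefu) and ATR (encoded by mei-41) signal the damage to cell cycle regulators and to the transcription factor p53, which in irradiated discs turns on cell death genes such as reaper.

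The study asked which genes change in losers, cells that are eliminated when they grow beside wild type cells, and sequenced RNA of whole wing discs, the larval epithelia that form the adult wings. The discs came from wandering larvae of the last instar raised at 25 °C, with 50 discs per sample and 1 genotype per sample. RpS3* (FRT82B, RpS3*/+) and RpS3 (FRT82B, RpS3[Plac92], ubi-GFP/+) are heterozygotes for mutations of the gene for ribosomal protein S3, and mahj discs were homozygous for a mutation of mahjong on FRT42D and carried hs-FLP and stauGFP. RpS15 discs (FRT42D, M(2)53[1]/+) are heterozygous for a mutation of another ribosomal protein gene and serve in the study as a mutant that lacks the loser state. RpS3+puc discs combined esg-Gal4, UAS-GFP and UAS-Puc with a chromosome carrying FRT82, RpS3[Plac92] and ubi-GFP. Puckered is the phosphatase that inhibits JNK signalling. esg-Gal4 drives it only in cells that express escargot, while the whole disc was sequenced. The WT group held 6 yw libraries and 2 FRT82, ubi-GFP libraries. There were 2 libraries each of RpS3*, RpS3, mahj and RpS15, 3 of RpS3+puc and 8 of WT. The labels do not say whether the libraries of a group came from separate cultures, and the methods speak of biological replicates only in general, with a minimum above the 2 libraries of most groups here. The p-values therefore measure the spread between these libraries, which may be technical.

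The values are FPKM (fragments scaled by transcript length and by sequencing depth), and the steps between low values imply 12122758 to 16970246 reads per library. RpS3 mRNA was at 0.521, 0.529 and 0.541 times the WT mean in RpS3*, RpS3+puc and RpS3 discs, and at 0.667 times in RpS15 discs. RpS15 mRNA was at 0.327 times in RpS15 discs and mahj mRNA at 0.661 times in mahj discs. The gene puc was at 160 to 225 FPKM in RpS3+puc discs, against 13.0 to 15.0 FPKM in RpS3 discs. The 4 wing disc markers, none of them at 0, summed to 211 to 287 FPKM in RpS3+puc discs, below all other libraries, 321 to 340 in RpS3*, RpS3 and mahj, 412 and 439 in RpS15, above all other libraries, and 302 to 386 in WT. The 4 markers of disc myoblasts summed to 45.9 to 51.7 FPKM in RpS3+puc discs, within the 40.7 to 63.1 FPKM of WT. They were at 30.3 and 38.7 FPKM in RpS3* and 37.1 and 41.9 in RpS3. In mahj they were at 32.4 and 40.9 and in RpS15 at 38.5 and 41.3. The 5 larval muscle markers summed to 23.4 to 38.1 FPKM in RpS3+puc, 57.9 and 60.0 in RpS3 and 40.1 to 69.4 in WT. In RpS3*, mahj and RpS15 they were at 44.4 and 52.25, 41.5 and 58.6, and 28.5 and 38.7. The 5 haemocyte markers reached at most 14.3 FPKM, in mahj. The 5 fat body markers, another larval tissue that can stick to discs, summed to 15.0 and 20.9 FPKM in RpS3*, 4.56 to 8.19 in RpS3+puc, 101 and 130 in RpS3, 1279 and 59.2 in mahj, 100.2 and 630 in RpS15 and 32.3 to 292 in WT. The part of these markers in the results was not tested. In RNA of whole discs, fewer cells of a type and less RNA per cell cannot be told apart.

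Genes that bind, hold and join DNA ends were higher in the 3 loser genotypes than in WT, whereas of the checkpoint kinase genes tefu was not called and mei-41 was called lower in RpS3* only. In RpS3* discs 8 of the 10 genes were higher and 1 was lower by limma on log2(FPKM + 1) at a Benjamini-Hochberg adjusted p under 0.1, the threshold for every call below. Of all 8067 genes tested there, 16.5% were higher and 6.33% were lower. In RpS3 discs 7 were higher and none was lower (7 and 0 also at an unadjusted p under 0.05), where 14.4% of all genes were higher and 4.17% were lower. In mahj discs 8 were higher and none was lower (8 and 0 at an unadjusted p under 0.05), where 9.33% of all genes were higher and 6.7% were lower. In RpS15 discs 2 were higher and 1 was lower, where 12.1% of all genes were higher and 8.99% were lower. The median log2 fold change of the 10 genes was 0.65 in RpS3*, 0.58 in RpS3, 0.85 in mahj and -0.08 in RpS15, beside 0.07, 0.09, -0.0060 and 0.03 over all genes. These comparisons share the WT libraries, so that their directions are not independent of one another. The study's own list of damage response genes, drawn up on these libraries, holds mre11, rad50, Irbp, Ku80, DNAlig4 and lig3, so that their direction here is not independent evidence. With the FPKM rescaled by median of ratios, the share of higher genes among all called genes was 57.4% in RpS3* (72.2% as deposited), 56.4% in RpS3 (77.6%) and 42.2% in RpS15 (57.4%).

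**Figure D1:**
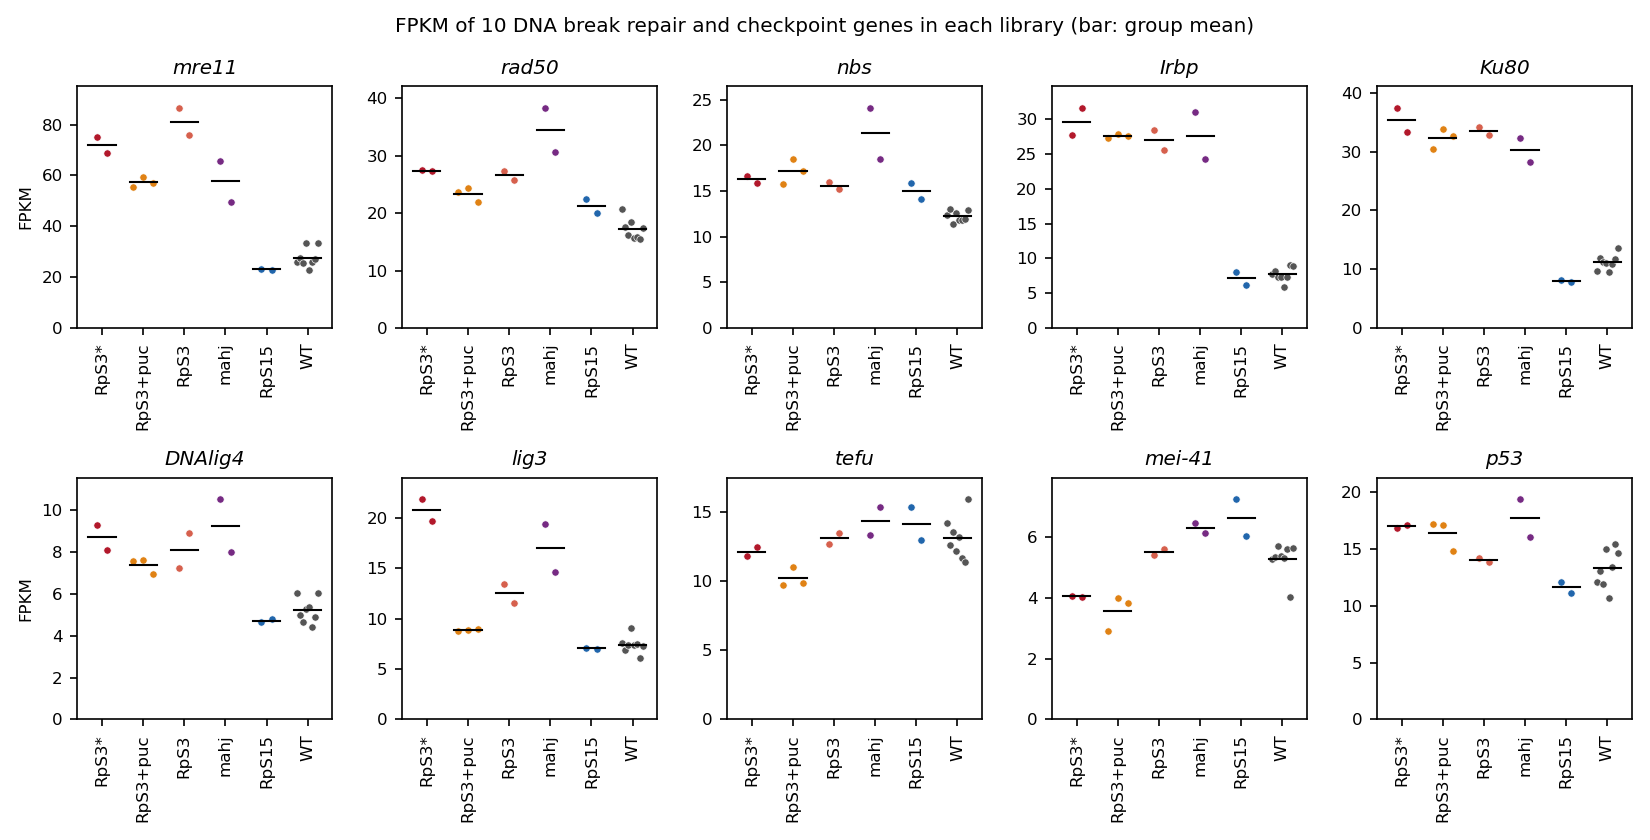
FPKM of the 10 genes in each library on a linear axis from 0, 1 panel per gene, with the groups RpS3*, RpS3+puc, RpS3, mahj, RpS15 and WT along the horizontal axis, 1 point per library and a bar at each group mean. For Irbp the 9 loser and RpS3+puc libraries lie at 24.2 to 31.6 FPKM, above the 8 WT libraries at 5.83 to 9.11, while for tefu the RpS3*, RpS3, mahj and RpS15 libraries lie within the range of WT and those of RpS3+puc below it.

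The mre11 gene (chromosome 2L, 11282090 to 11284335 in BDGP6.54, the annotation used for all positions here, which may not be the authors' build) encodes the nuclease of MRN. Its level was 75.0 and 68.6 FPKM in RpS3* discs, 55.6, 59.2 and 57.1 in RpS3+puc, 86.5 and 75.9 in RpS3, 65.8 and 49.7 in mahj, 23.2 and 22.9 in RpS15 and 22.7 to 33.5 with a median of 26.5 in WT. Every loser and RpS3+puc library was above every WT library, and both RpS15 libraries lay at the low end of WT. Its group means were 2.59 times that of WT in RpS3*, 2.07 in RpS3+puc, 2.93 in RpS3 and 2.09 in mahj. On the log2 scale, mre11 rose by 1.35 ± 0.13 (SE) in RpS3* (limma adjusted p = 1.59e-05), 1.53 ± 0.13 in RpS3 (9.83e-06) and 1.03 ± 0.14 in mahj (0.000412). In RpS15 the difference was -0.24 ± 0.13 (limma adjusted p = 0.217).

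The rad50 gene, on chromosome arm 2R, encodes the ATPase that bridges the ends. It was at 27.5 and 27.4 FPKM in RpS3* discs, 23.7, 24.5 and 22.0 in RpS3+puc, 27.4 and 25.8 in RpS3, 38.3 and 30.6 in mahj, 22.6 and 20.0 in RpS15 and 15.5 to 20.7 with a median of 16.8 in WT. The loser and RpS3+puc libraries again lay above all WT libraries, by less than for mre11, and mahj libraries were the highest. The rise was 0.65 ± 0.10 in RpS3* (limma adjusted p = 0.00124), 0.61 ± 0.10 in RpS3 (0.00308) and 0.96 ± 0.11 in mahj (0.000123). In RpS15 discs rad50 was higher by 0.30 ± 0.11 (limma adjusted p = 0.0848), with 1 of the 2 libraries inside the range of WT, a call lost in 16 of 21 alternatives.

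The nbs gene (3L, 9720414 to 9723194) encodes the MRN subunit that recruits the ATM kinase. It stood at 16.7 and 15.9 FPKM in RpS3* discs, 15.8, 18.5 and 17.2 in RpS3+puc, 16.0 and 15.2 in RpS3, 24.1 and 18.5 in mahj, 15.9 and 14.1 in RpS15 and 11.4 to 13.0 with a median of 12.2 in WT. All 11 mutant libraries, those of RpS15 included, were above the highest WT library. The rise was 0.38 ± 0.08 in RpS3* (limma adjusted p = 0.00680), 0.33 ± 0.08 in RpS3 (0.0214), 0.74 ± 0.10 in mahj (0.000244) and 0.27 ± 0.08 in RpS15 (0.0495). Without RpS3* replicate 1 it was 0.35 in RpS3* and not called. Without RpS3 replicate 1 or 2 it was 0.29 and 0.36 in RpS3 and not called. In RpS15 the calls of rad50 and nbs were both lost when the trend of each library along transcript length was removed, an alternative added after seeing the data (rad50 0.13, adjusted p = 0.409, and nbs 0.20, adjusted p = 0.134). The 3 genes thus did not move in proportion. The ratio of mre11 to rad50, in FPKM, averaged 2.62 in RpS3*, 2.45 in RpS3+puc and 3.05 in RpS3 discs, against 1.26 to 1.91 over the WT libraries. In mahj the ratio was 1.67, within the range of WT, and in RpS15 it was 1.09, below it. The ratio of nbs to rad50 was 0.594, 0.734, 0.586, 0.617 and 0.705 in RpS3*, RpS3+puc, RpS3, mahj and RpS15 discs, against 0.598 to 0.771 in WT. CG14174 overlaps nbs by 51 bp on the other strand, with 9.53 to 16.9 FPKM, and was also called higher in RpS3 (0.39, limma adjusted p = 0.0844) and was at -0.01 in mahj. Whether the reads were counted by strand is not given in the sources used here.

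Irbp (3R, 11410047 to 11412440) encodes the Ku70 subunit and was the member with the largest rise in each loser genotype. It stood at 27.7 and 31.6 FPKM in RpS3* discs, 27.2, 27.8 and 27.5 in RpS3+puc, 28.4 and 25.6 in RpS3, 31.0 and 24.2 in mahj, 8.10 and 6.13 in RpS15 and 5.83 to 9.11 with a median of 7.58 in WT. The loser and RpS3+puc libraries were far above both RpS15 and WT, which overlapped. The mean was 3.84 times that of WT in RpS3*, 3.56 in RpS3+puc, 3.49 in RpS3 and 3.57 in mahj, and 0.921 times in RpS15. The log2 rise was 1.82 ± 0.13 in RpS3* (limma adjusted p = 1.24e-06), 1.69 ± 0.13 in RpS3 (3.44e-06) and 1.71 ± 0.14 in mahj (5.89e-06), and the difference in RpS15 was -0.11 ± 0.14 (0.636). A small nucleolar RNA gene lies within Irbp.

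Ku80 (2L, 15768630 to 15771159) encodes the other subunit of the ring. Its values were 37.4 and 33.3 FPKM in RpS3* discs, 30.4, 33.8 and 32.7 in RpS3+puc, 34.2 and 32.9 in RpS3, 32.3 and 28.2 in mahj, 8.17 and 7.75 in RpS15 and 9.47 to 13.6 with a median of 11.2 in WT. No group of these overlapped WT: the loser and RpS3+puc libraries were above it and both RpS15 libraries below it. Ku80 rose by 1.58 ± 0.12 in RpS3* (limma adjusted p = 1.47e-06), 1.51 ± 0.11 in RpS3 (2.99e-06) and 1.36 ± 0.12 in mahj (8.58e-06). In RpS15 discs it fell by 0.44 ± 0.12 on the log2 scale (95% interval -0.69 to -0.19, limma adjusted p = 0.0293). Without the first or the second RpS15 library the fall was not called (-0.47, adjusted p = 0.186, and -0.41, adjusted p = 0.235). The ratio of Ku80 to Irbp averaged 1.20 in RpS3*, 1.17 in RpS3+puc, 1.24 in RpS3, 1.10 in mahj and 1.14 in RpS15 discs, against 1.46 in WT (1.24 to 1.63 over the libraries).

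**Figure D2:**
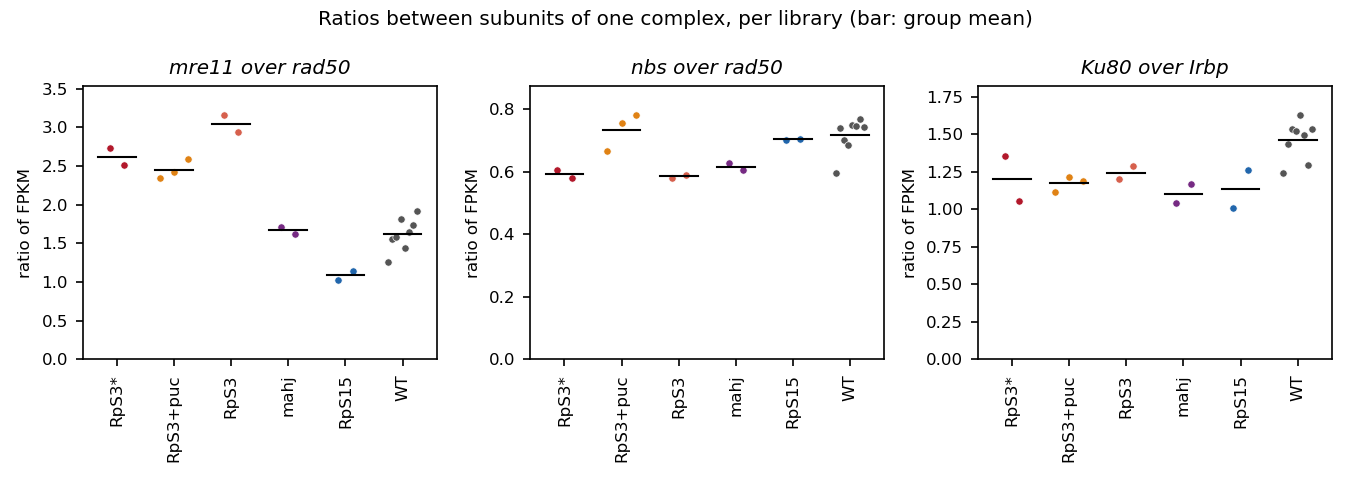
Ratio of FPKM between genes whose products share a complex (mre11 over rad50, nbs over rad50, Ku80 over Irbp), with 1 point per library and the groups along the horizontal axis. The mre11 to rad50 ratio averages 2.62, 2.45 and 3.05 in RpS3*, RpS3+puc and RpS3 discs, above the highest WT library at 1.91, while the Ku80 to Irbp ratio averages 1.10 to 1.24 in the mutants and 1.46 in WT.

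DNAlig4 (X, 13664584 to 13667811), the ligase of nonhomologous end joining, was expressed at a lower level than the Ku genes. It had 9.30 and 8.10 FPKM in RpS3* discs, 7.55, 7.62 and 6.96 in RpS3+puc, 7.26 and 8.90 in RpS3, 10.5 and 8.0 in mahj, 4.64 and 4.80 in RpS15 and 4.44 to 6.05 with a median of 5.14 in WT. All loser and RpS3+puc libraries exceeded WT, and RpS15 libraries fell within it. The rise was 0.64 ± 0.12 in RpS3* (limma adjusted p = 0.00402), 0.54 ± 0.12 in RpS3 (0.0168) and 0.72 ± 0.13 in mahj (0.00294), and the difference in RpS15 was -0.12 ± 0.12 (0.532). Without RpS3 replicate 1 or 2 the rise in RpS3 was 0.68 and 0.41 and was not called. With 195 to 485 reads per library, as implied by its FPKM and length, DNAlig4 rested on fewer reads than mre11 with 705 to 2802.

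The lig3 gene (3R, 12399011 to 12401839, on the opposite strand inside Sol1, which was at most 0.158 FPKM) encodes DNA ligase III. It differed most among the loser genotypes, with 21.8 and 19.7 FPKM in RpS3* discs, 8.75, 8.92 and 9.02 in RpS3+puc, 13.4 and 11.6 in RpS3, 19.4 and 14.6 in mahj, 7.13 and 7.0 in RpS15 and 6.13 to 9.03 with a median of 7.39 in WT. The RpS3*, RpS3 and mahj libraries were all above WT, whereas those of RpS3+puc reached only the top of its range. The rise over WT was 1.38 ± 0.11 in RpS3* (limma adjusted p = 3.93e-06), 0.68 ± 0.11 in RpS3 (0.00278) and 1.09 ± 0.13 in mahj (9.47e-05), and the difference in RpS15 was -0.05 ± 0.11 (0.763). The ratio of lig3 to DNAlig4 was 2.39 in RpS3*, 1.21 in RpS3+puc, 1.58 in RpS3, 1.84 in mahj, 1.50 in RpS15 and 1.43 in WT.

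Of the checkpoint kinase genes, tefu was not called in any loser genotype and mei-41 was called lower in RpS3*. The tefu gene (3R, 15232212 to 15242236), which encodes ATM, had 11.8 and 12.5 FPKM in RpS3* discs, 9.74, 11.1 and 9.88 in RpS3+puc, 12.7 and 13.5 in RpS3, 13.4 and 15.4 in mahj, 15.4 and 13.0 in RpS15 and 11.4 to 15.9 with a median of 12.9 in WT. All RpS3*, RpS3, mahj and RpS15 libraries lay inside the range of WT and those of RpS3+puc below it. The log2 differences were -0.09 in RpS3* (95% interval -0.34 to 0.15, limma adjusted p = 0.579), 0.0063 in RpS3 (-0.23 to 0.25, 0.973), 0.13 in mahj (-0.12 to 0.38, 0.559) and 0.11 in RpS15 (-0.14 to 0.36, 0.549). The sign in RpS3 was negative after rescaling by median of ratios (-0.08).

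The mei-41 gene (X, 16391698 to 16399850), which encodes ATR, had the lowest level of the 10 beside DNAlig4. It was at 4.08 and 4.04 FPKM in RpS3* discs, 2.92, 3.99 and 3.82 in RpS3+puc, 5.41 and 5.63 in RpS3, 6.46 and 6.13 in mahj, 7.25 and 6.04 in RpS15 and 4.03 to 5.72 with a median of 5.38 in WT. The RpS3* libraries lay with the lowest WT library and below the other 7, which began at 5.29, and the mahj and RpS15 libraries lay above WT. In RpS3* discs mei-41 fell by 0.31 ± 0.12 (limma adjusted p = 0.0979). That call was lost in 16 of 21 alternatives, and with the trend along transcript length removed the value was -0.06 (adjusted p = 0.75). The differences were 0.06 in RpS3 (-0.20 to 0.31, limma adjusted p = 0.773; -0.02 after median of ratios), 0.22 in mahj (-0.04 to 0.47, 0.294) and 0.28 in RpS15 (0.02 to 0.55, 0.143). At 8416 and 7899 bp, the transcripts of tefu and mei-41 were the longest of the 10, which otherwise had 2013 to 4068 bp.

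The p53 gene (3R, 23049657 to 23054082) encodes the transcription factor at the end of the pathway. It had 16.8 and 17.1 FPKM in RpS3* discs, 17.1, 17.1 and 14.8 in RpS3+puc, 14.2 and 13.8 in RpS3, 19.3 and 16.0 in mahj, 12.1 and 11.1 in RpS15 and 10.7 to 15.4 with a median of 13.2 in WT. Both RpS3* and both mahj libraries were above WT, and those of RpS3 and RpS15 were within it. The rise was 0.34 ± 0.12 in RpS3* (limma adjusted p = 0.0807) and 0.39 ± 0.13 in mahj (0.0707), and the differences were 0.08 ± 0.12 in RpS3 (0.678; -0.0044 after median of ratios) and -0.17 ± 0.12 in RpS15 (0.368). Both rises were near the threshold. The call in RpS3* was lost in 9 of 21 alternatives and that in mahj in 6 of 21, among them leaving out the first mahj library (0.26, adjusted p = 0.714). Across 1215 bp p53 overlaps Gr94a on the other strand, a taste receptor gene at 0.507 to 2.55 FPKM, and the annotation gives p53 4 transcripts, for which the files hold 1 value.

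In RpS15 the fat body markers were at 100.2 FPKM in replicate 1 and 630 in replicate 2, and all 10 genes but DNAlig4 were higher in replicate 1. Within mahj, replicate 1 (fat body markers at 1279 FPKM) was higher than replicate 2 (59.2 FPKM) for 9 of the 10 genes, all but tefu. How many of all genes were higher in mahj replicate 1 was not counted. Without replicate 1, 6 of the 10 were called, where 185 of all 8028 genes were called higher, and DNAlig4 (0.54, limma adjusted p = 0.164) and p53 were not. Without RpS3 replicate 1, 3 of the 10 were called in RpS3 (Irbp, mre11 and Ku80), where 115 of all 8000 genes were called higher, and 5 without RpS3 replicate 2, where 256 of 8016 were. Without either RpS15 replicate none was called by limma in RpS15, where the lone library was assumed to vary like WT and, of all genes, 123 were higher and 128 lower without replicate 1 and 128 higher and 121 lower without replicate 2.

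**Figure D3:**
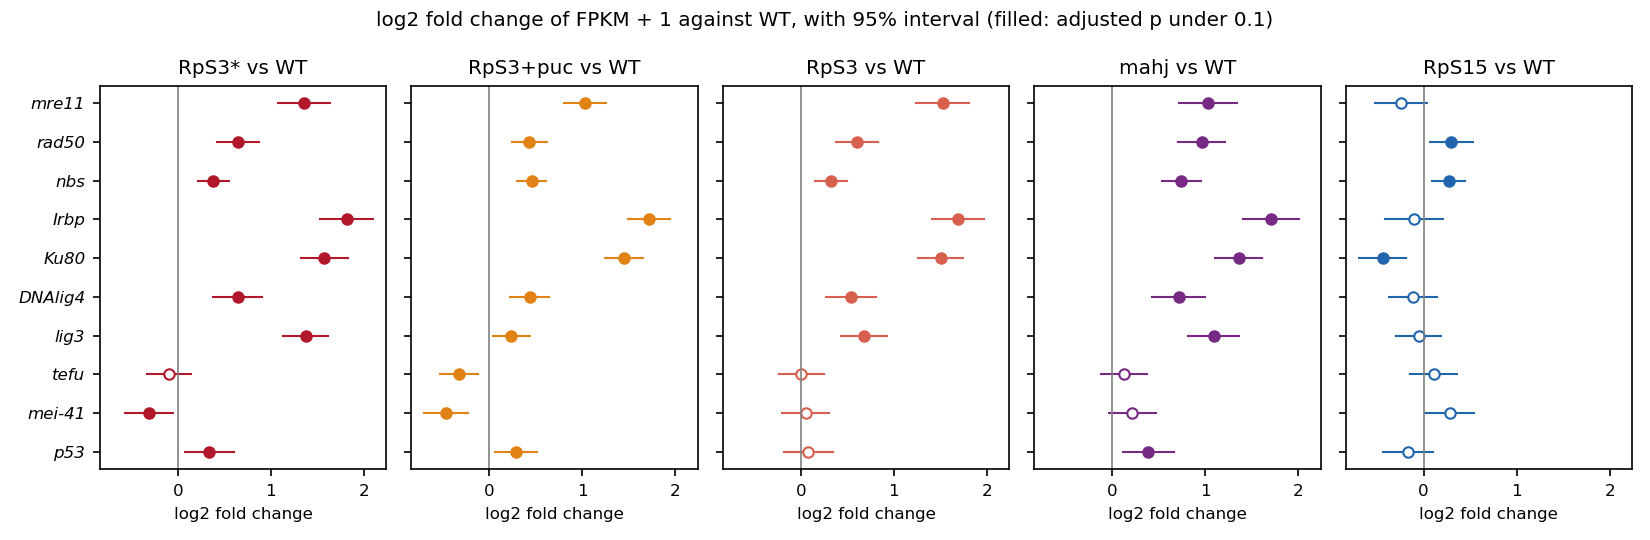
Log2 fold changes of the 10 genes with 95% intervals, from limma on log2(FPKM + 1), for RpS3*, RpS3+puc, RpS3, mahj and RpS15 discs against WT, filled where the adjusted p is under 0.1. Irbp, Ku80 and mre11 lie between 1.03 and 1.82 in the 3 loser genotypes, tefu lies within 0.13 of 0 in them, and Ku80 is at -0.44 in RpS15 discs.

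The study set the losers against RpS15 to separate the loser state from a ribosomal protein mutation as such. Against RpS15, the mean of RpS3*, RpS3 and mahj was higher for 8 of the 10 genes and lower for 1, where 29.1% of all 8406 genes were higher and 23.3% were lower. The difference was 1.92 ± 0.10 for Ku80 (limma adjusted p = 2.17e-10), 1.85 ± 0.13 for Irbp (8.74e-09), 1.55 ± 0.13 for mre11 (6.99e-08) and 1.10 ± 0.11 for lig3 (9.59e-07). For these 4 genes, and also for DNAlig4, rad50 and p53, the lowest loser library was above the highest RpS15 library. How many of all genes are separated in this way was not counted. DNAlig4 was higher by 0.75 ± 0.12 (0.000151), rad50 and p53 by 0.44 each (0.00296 and 0.00617) and nbs by 0.21 ± 0.09 (0.0626), the smallest of the called rises. The nbs call was lost in 5 of 14 alternatives, among them leaving out RpS3 replicate 1 (0.20, adjusted p = 0.106), RpS3* replicate 1 (0.20, 0.102), mahj replicate 1 (0.15, 0.144) or RpS15 replicate 2 (0.13, 0.425). For mei-41 the difference was -0.29 ± 0.12 (limma adjusted p = 0.0518), and it was not called without RpS15 replicate 1 (-0.18, adjusted p = 0.405) or with the length trend removed (0.05, adjusted p = 0.699). For tefu it was -0.09 ± 0.11 (0.488), and 0.25 (0.0509) with the length trend removed, so that its direction turned.

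Between the RpS3 alleles, lig3 alone among the 10 differed. It was at 21.8 and 19.7 FPKM in RpS3* discs, against 13.4 and 11.6 FPKM in RpS3 discs, with no overlap, and rose by 0.69 ± 0.10 (95% interval 0.47 to 0.91, limma adjusted p = 0.00915). Of all 7837 genes tested between the alleles, 2.91% were higher and 3.11% were lower. Without RpS3 replicate 2 the difference was 0.59 and was not called (adjusted p = 0.108). None of the other members was called. Irbp differed by 0.13 (-0.07 to 0.33), Ku80 by 0.07 (-0.10 to 0.25), rad50 by 0.04 (-0.12 to 0.20) and nbs by 0.06 (-0.12 to 0.24). The differences of mei-41 (-0.37, 95% interval -0.64 to -0.09, limma adjusted p = 0.158) and p53 (0.26, 0.08 to 0.44, 0.128) were larger, with intervals on 1 side of 0, and did not pass the adjusted threshold.

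RpS3+puc discs were compared with RpS3 discs to find what inhibition of JNK signalling changes in the mutant. RpS3 discs carried neither esg-Gal4 nor UAS-GFP, so that these and the overexpression of puc cannot be told apart. In this comparison none of the 10 genes was higher and 4 were lower (0 and 4 at an unadjusted p under 0.05), where 21.5% of all 7883 genes were higher and 25.1% were lower. The mre11 gene, at 55.6, 59.2 and 57.1 FPKM in RpS3+puc discs against 86.5 and 75.9 FPKM in RpS3 discs, fell by 0.49 ± 0.08 on the log2 scale (limma adjusted p = 0.00385). Likewise lig3, at 8.75, 8.92 and 9.02 FPKM against 13.4 and 11.6 FPKM in RpS3, fell by 0.45 ± 0.10 (0.0104). The kinase genes mei-41 and tefu fell by 0.52 ± 0.14 (0.0211) and 0.33 ± 0.10 (0.0272). None of these 4 overlapped between the groups, and how many of all genes did not overlap was not counted. The Ku genes were not called, with differences of 0.03 for Irbp (-0.15 to 0.20) and -0.05 for Ku80 (-0.23 to 0.12). The differences were -0.18 for rad50 (limma adjusted p = 0.113), 0.13 for nbs (0.289), -0.11 for DNAlig4 (0.479) and 0.21 for p53 (0.109). Without RpS3 replicate 1 the count was 1 (836 genes higher and 930 lower of 7781), and without replicate 2 it was 2 (547 and 685 of 7797).

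The genes with the longest transcripts, tefu and mei-41, moved when a trend along transcript length was taken out of the values. With the trend of each library along length removed, tefu was at 0.07 (limma adjusted p = 0.507) and mei-41 at -0.13 (0.311), while mre11 stayed at -0.52 (0.00129) and lig3 at -0.40 (0.00886). Then p53 (0.19, 0.0965) and nbs (0.17, 0.0883) were called higher, and the count was 2 higher and 2 lower, where 1350 of 7560 genes were higher and 1774 were lower. This setting was chosen after seeing the data.

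**Figure D4:**
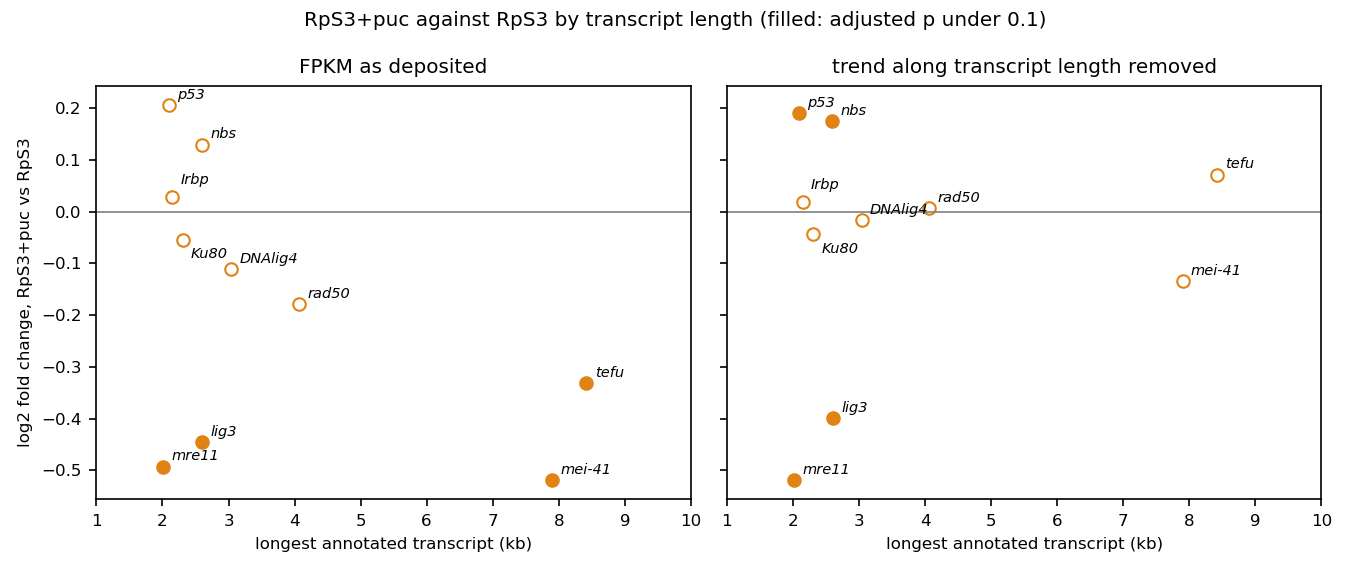
Log2 fold change of the 10 genes in RpS3+puc against RpS3 discs by the length of the longest transcript in kilobases, as deposited and with each library's trend along length removed. The points of tefu and mei-41, at 8416 and 7899 bp, move to 0.07 and -0.13 when the trend is removed, and mre11 and lig3 stay at -0.52 and -0.40.

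Against WT, RpS3+puc discs had 8 of the 10 genes higher and 2 lower, where 37.4% of all 8094 genes were higher and 24.9% were lower. Of the called genes, 60.1% were higher, and 51.2% after rescaling by median of ratios. Irbp was higher than in WT by 1.72 ± 0.10 (limma adjusted p = 5.0e-08), Ku80 by 1.45 ± 0.09 (1.07e-07) and mre11 by 1.03 ± 0.11 (1.11e-05). The rises were smaller for nbs (0.45, 0.000314), DNAlig4 (0.43, 0.00271), rad50 (0.43, 0.00154), p53 (0.29, 0.0317) and lig3 (0.24, 0.0411). The call of lig3 was lost after median of ratios (0.17, adjusted p = 0.138). The lower genes were mei-41 (-0.46, 0.00350) and tefu (-0.32, 0.0112). With the length trend removed, tefu was higher by 0.27 (adjusted p = 0.0277) and mei-41 was at 0.11 (0.295), and the count was 9 higher and none lower (limma; 2348 of 7628 genes were higher and 1024 lower).

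Genes of the surrounding pathways were taken from lists of known repair and checkpoint genes that hold none of the 10. Of 16 genes of end processing and homologous recombination, 3 were higher in RpS3*, 2 in RpS3 and 2 in mahj and none was lower, and 3 were higher and 1 lower in RpS15. Over all genes tested, the shares higher were 16.5%, 14.4%, 9.33% and 12.1% in RpS3*, RpS3, mahj and RpS15 and those lower 6.33%, 4.17%, 6.7% and 8.99%, and the counts of this list were near them. After median of ratios 2 were higher in RpS3* and 1 in RpS3. The same shares are the background of the counts of the lists that follow. The list's median log2 fold change was 0.05, 0.19, -0.02 and 0.04 in RpS3*, RpS3, mahj and RpS15. RPA1, the large subunit of the protein that coats single-stranded DNA, averaged 213 FPKM in RpS3*, 184 in RpS3 and 183 in mahj, against 100 FPKM in WT, and rose by 1.08, 0.87 and 0.85 (limma adjusted p = 1.3e-05, 0.000275 and 0.000299). The gene spn-D rose in RpS3* (0.38, limma adjusted p = 0.0787). The resolvase gene Gen rose in mahj (0.46, 0.0526) and in RpS15 (0.71, 0.00857). In RpS3+puc against RpS3, 5 of the 16 fell and none rose (5 and 0 at an unadjusted p under 0.05), where 21.5% of all genes rose and 25.1% fell, with the helicase gene Blm at -0.65 (limma adjusted p = 0.0109).

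Of 5 further end joining genes, 2 rose in RpS3*, 2 in RpS3 and all 5 in mahj, and none was called by limma in RpS15 (0 also at an unadjusted p under 0.05). After median of ratios the count in RpS3 was 1. The list's median was 0.33, 0.24, 0.64 and 0.04 in RpS3*, RpS3, mahj and RpS15. CG3448 rose by 1.90 in RpS3* (limma adjusted p = 3.22e-07), 1.31 in RpS3 (4.37e-05) and 1.75 in mahj (5.89e-06). Parp1, whose product senses strand breaks, rose by 1.18, 1.19 and 1.16 in the same order, near the threshold (limma adjusted p = 0.0650, 0.0733 and 0.079). It also averaged 55.9 FPKM in RpS15 and 58.1 in RpS3+puc, against 32.9 FPKM in WT, where it ranged from 13.0 to 50.3. In mahj XRCC1, a scaffold of single-strand break repair, rose by 0.64 and PolQ, the polymerase of microhomology-mediated end joining, by 0.60. PolQ fell by 0.43 in RpS3+puc against RpS3 (0.0262), a comparison in which 1 of the 5 was higher and 3 were lower.

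The 13 genes of checkpoint signalling other than tefu, mei-41 and p53 had medians of 0.05, 0.12, -0.02 and 0.01 in RpS3*, RpS3, mahj and RpS15. Of them stg (0.39, limma adjusted p = 0.0807), the Cdc25 phosphatase, and Rad9 (0.34, 0.0645), a subunit of the checkpoint clamp, were called higher in RpS3*, while after median of ratios 0 were higher and 1 was lower, and at an adjusted p under 0.05 none was called. None was called by limma in RpS3, mahj or RpS15, where 2 higher, 2 lower and 0 passed an unadjusted p under 0.05. In RpS3+puc against RpS3, Claspin, the adaptor between ATR and its effector kinase, was at -0.83 (limma adjusted p = 0.00123) and stg at 0.37 (0.0216), and the count was 2 higher and 1 lower.

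Excision, mismatch, crosslink and bypass repair was the longest list. Of its 25 genes, 11 rose in RpS3*, 13 in RpS3 and 7 in mahj, 1 fell in mahj, and in RpS15 4 rose and 2 fell, near the 12.1% and 8.99% of all genes. After rescaling by median of ratios the counts were 10 higher and 2 lower in RpS3* and 9 higher in RpS3. The median was 0.32, 0.29, 0.09 and 0.07 in RpS3*, RpS3, mahj and RpS15. The gene agt, whose product removes alkyl groups from guanine, averaged 54.5 FPKM in RpS3*, 51.4 in RpS3, 41.8 in mahj and 6.0 in RpS15, against 12.1 FPKM in WT. It rose by 2.10, 2.02 and 1.72 in the 3 loser genotypes (limma adjusted p = 4.09e-06, 9.83e-06 and 3.39e-05) and fell by 0.89 in RpS15 (0.00777). PolZ1, the catalytic subunit of the bypass polymerase zeta, rose by 1.29, 0.80 and 0.99 in the losers and by 0.67 in RpS15. The photolyase gene phr was lower in mahj (-1.74, 9.32e-05) and in RpS15 (-1.34, 0.00135) and higher in RpS3 (0.54, 0.0970). The nuclease gene mus201 was higher by 0.41 in RpS3* and RpS3, 0.88 in mahj and 0.38 in RpS15 (limma adjusted p = 0.0163, 0.0278, 0.000222 and 0.0332). In RpS3+puc against RpS3, 17 of the 25 fell and 2 rose (25.1% and 21.5% of all genes), and 12 fell and 3 rose with the length trend removed. The largest fall was that of the photolyase gene phr6-4, at -0.93 (limma adjusted p = 0.00385).

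Of 6 tested genes that respond to irradiation through p53, 5 rose in RpS3*, 2 in RpS3 and 5 in mahj, and in RpS15 1 rose and 1 fell. Of all genes 16.5%, 14.4% and 9.33% rose in RpS3*, RpS3 and mahj, and in RpS15 12.1% rose and 8.99% fell. The median of the 6 was 0.75, 0.31, 0.97 and 0.21 in RpS3*, RpS3, mahj and RpS15, and skl, also on the list, did not reach the minimum level. Xrp1, a bZIP transcription factor, averaged 525 FPKM in RpS3*, 469 in RpS3, 434 in mahj and 59.2 in RpS15, against 175 FPKM in WT. It rose by 1.59, 1.42 and 1.31 in the 3 loser genotypes and fell by 1.54 in RpS15 (limma adjusted p = 5.33e-06). In mahj Corp rose by 1.16, egr, the TNF ligand, by 1.02 and the cell death gene rpr by 0.93, and rpr rose by 0.89 in RpS3*. In RpS3+puc against RpS3 rpr was at -0.77 (limma adjusted p = 0.00172), and of the 6 genes none rose and 2 fell (0 and 2 at an unadjusted p under 0.05), where 25.1% of all genes fell.

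Since several of these genes are used in S phase, 11 replication genes were also counted. In RpS3* discs 8 were higher and in RpS3 discs 6 (7 and 2 after rescaling by median of ratios), and none was called by limma in mahj or RpS15, where 0 and 1 were higher at an unadjusted p under 0.05. In RpS3* discs PCNA, the sliding clamp, was at 0.53, the helicase subunits Mcm2 and dpa at 0.44 and 0.43, and RnrS, which makes deoxyribonucleotides, at 0.43. Their medians were 0.41, 0.35, 0.09 and 0.12 in RpS3*, RpS3, mahj and RpS15. Their part in the values of the 10 genes was not tested.

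**Figure D5:**
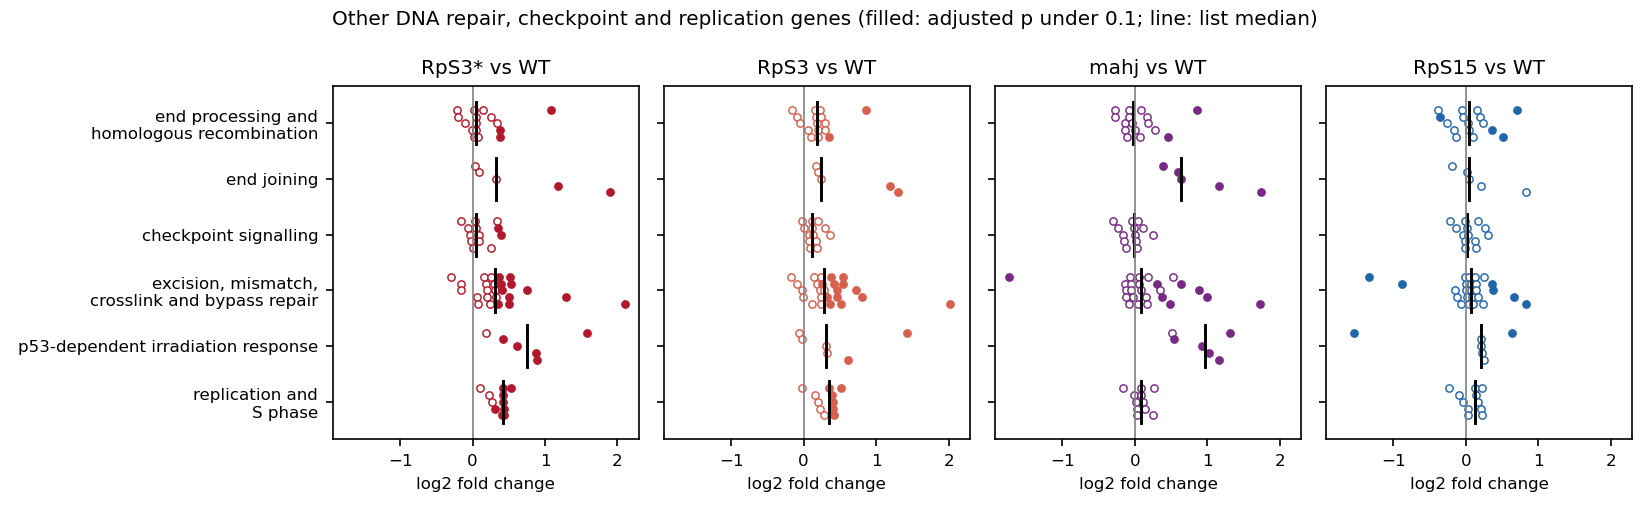
Log2 fold changes against WT of the genes on the other lists in RpS3*, RpS3, mahj and RpS15 discs, 1 point per gene and a bar at the list's median, filled where limma's adjusted p is under 0.1. The replication genes have medians of 0.41 and 0.35 in RpS3* and RpS3 and 0.09 and 0.12 in mahj and RpS15.

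Over the 19 libraries, the gene whose log2(FPKM + 1) followed each of the 10 most closely was looked up among 7857 genes with a mean of at least 1 FPKM. The libraries cluster by genotype, so that the correlations describe group differences and have no p. Irbp was closest to Nfs1 (r = 0.994) and Ku80 to IscU (0.987), whose products build iron-sulphur clusters. The closest gene to mre11 was Ku80 (0.973). Those closest to rad50, nbs, DNAlig4 and lig3 were obe (0.945), GstD9 (0.926), rdog (0.932) and Cul2 (0.939). For the kinases they were msps for tefu (0.945) and Apc for mei-41 (0.954), and p53 had the lowest value of the 10, with Mettl4 (0.890).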

How the data were processed

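RNA of whole wing discs was sequenced after TruSeq library preparation, and the 25 samples in the labels make 19 libraries, 6 of which pooled 2 runs that the labels call technical replicates. The deposited FPKM, 1 value per gene and library, were made by the authors, who per the labels aligned reads with BWA 0.6.2 to dm3; the counting tool, its strand setting and the normalization are not given in the sources used here. The WT1 column is headed as run 1 only. Of the low values, 97.2% to 97.8% per library were whole multiples of 1 read within a tolerance of 0.02, which gave the implied depth; no counts were tested.

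limma 3.58.1 (statmod 1.5.0, R 4.3.3) was fitted to log2(FPKM + 1) with a variance trend and robust moderation, on genes that reached 1 FPKM in 2 or more of the compared libraries. P-values were adjusted by Benjamini-Hochberg over all genes tested, with a threshold of 0.1. Each fit held the compared libraries only, except losers against RpS15, fitted on all 19. Fold changes on this scale understate those of low genes. Alternatives were a threshold of 0.05, a pseudocount of 0.1, no filter, all libraries in 1 fit, median of ratios scaling, a replicate block, other WT libraries and leaving out each library; a removed length trend (lowess, span 0.3) and leaving out WT6 and WT7 were added after seeing the data.

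All 10 members were named in every comparison. In each other list the genes named were the up to 4 called genes with the largest change in RpS3*, RpS3 or mahj and the up to 2 largest in RpS15 or RpS3+puc against RpS3. For 1 gene of the homologous recombination list that this rule names, the result is not reported here. The members and lists were chosen with earlier results of these data known, and 6 of the members are on the study's own list. Genes were matched by FlyBase identifier to BDGP6.54; lig3 is DNAlig3 there.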

Additional observations from a re-analysis of the deposited data

Results flagged for a closer look

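The lowest WT library for mei-41, WT7, had 4.035 FPKM, while the next lowest had 5.293 FPKM. The gap was 0.747 of the range of the 8 WT libraries, above Dixon's critical value for 8 samples. Chance gives such a gap in about 1 group in 20, and 10 were examined, 1 for each gene. Without WT7 mei-41 remained called lower in RpS3*, while leaving out any other single WT library lost the call (limma adjusted p = 0.108 to 0.155).

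The log2 difference of lig3 between RpS3* and RpS3 discs was 0.69 (0.6903, limma adjusted p = 0.009149), a difference between alleles of the same gene under the same contrast with WT. The alleles were in different genetic backgrounds, with ubi-GFP in RpS3 discs only, and the background and the allele cannot be told apart.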

How the results depend on the processing

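Of the values of single members under an alternative, 1310 kept direction and call and 27 changed sign, some of these with a change of call. Of those that kept their sign, 85 lost and 8 gained the call. Irbp, Ku80 and mre11 were called in every alternative run in the 3 loser genotypes. With 2 libraries in most groups, leaving out 1 decided several counts. They ranged from 3 to 7 members in RpS3, 0 to 3 in RpS15, 1 to 6 in RpS3+puc against RpS3 and 0 to 1 in RpS3* against RpS3, and from 6 to 9, 6 to 8, 8 to 10 and 8 to 9 in RpS3*, mahj, RpS3+puc against WT and losers against RpS15. The RpS15 count was 1 under the replicate block (of all genes 1460 higher and 848 lower) and with the length trend removed (506 and 482). It was also 1 with the FRT82 ubi-GFP libraries as WT (697 and 748) and with WT libraries of as many runs (1225 and 711). The number of all genes called also changed as libraries were left out, so these ranges do not describe the 10 genes alone. In RpS3 against WT, 773 of all genes were higher and 226 lower without WT replicate 3, and 1911 and 613 without WT replicate 7.

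Libraries share only a replicate number: across genes their differences between replicates 1 and 2 correlated at -0.262 to 0.229 between groups. With that number as a block, tefu in RpS3 was at -0.031 and mei-41 lost its call in RpS3*.

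Signs turned as follows; the cause was not tested. In RpS3 against WT, median of ratios gave -0.023 for mei-41, -0.0044 for p53 and -0.080 for tefu, and tefu was at -0.015 with yw WT only, -0.048 without WT6 and WT7 and -0.031 to 0.045 over single libraries left out. With the length trend removed, tefu was at 0.17 in RpS3*, -0.12 in RpS15, 0.27 in RpS3+puc, 0.071 in RpS3+puc against RpS3 and 0.25 in losers against RpS15, mei-41 at 0.11 in RpS3+puc and 0.050 in losers against RpS15, and rad50 at 0.0065 in RpS3+puc against RpS3. Irbp in RpS15 was at 0.094 with FRT82 ubi-GFP WT only. Leaving out single libraries gave -0.28 to 0.070 for Irbp and -0.0058 to 0.22 for tefu in RpS15, -0.044 to 0.10 for Irbp and -0.24 to 0.020 for DNAlig4 in RpS3+puc against RpS3, -0.032 to 0.23 for DNAlig4, -3.0e-05 to 0.083 for rad50 and -0.0090 to 0.15 for Ku80 in RpS3* against RpS3, and -0.21 to 0.019 for tefu in losers against RpS15.

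By median, DNAlig4, Irbp and lig3 rested on the fewest implied reads per library (308, 326 and 332, with ranges of 195 to 485, 189 to 1067 and 266 to 917). The absence of stated strand use limits nbs and p53.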
